A study of Mus musculus with 6 samples.

Results

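Angptl4, Pdk4, Cpt1a, Plin2, Ppara, Hadhb, Acat1 and Bdh1 are genes for the use of fatty acids and the making of ketone bodies, 8 of the 54532 genes in a bulk RNA sequencing count table of mouse retinal pigment epithelium (RPE). They were chosen by name for the fate of outer segment lipid, with earlier results of these data known, and all 8 passed the filter on low counts. The libraries were 3 biological replicates per genotype, sampled 5 h after lights came on: wild type (WT, 129S1/SvlmJ) and Abca4-/- (the label Abca4KO, Abca4tm1Ght/J). All mice carried the Leu450 form of Rpe65 and were kept in cyclic light on a standard diet. The mutant line and its wild type are separate stocks, so line and genotype cannot be told apart, and the labels give no age or sex.

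The RPE engulfs shed photoreceptor outer segments every day and takes up their fatty acids. Peroxisome proliferator-activated receptors (PPARs) are nuclear receptors that bind fatty acids and, paired with retinoid X receptors, turn on genes for handling them. CPT1A admits fatty acids to mitochondria, beta-oxidation cuts them to acetyl-CoA, and some of that acetyl-CoA becomes ketone bodies, which RPE can export to photoreceptors. Lipid droplets hold what is not burned. In bulk tissue, fewer cells of a type and less RNA per cell cannot be told apart.

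Library totals were 17047286 to 19841307 counts, so that 3 counts equalled 0.152 to 0.174 CPM (counts scaled to a common library size). Abca4 stood at 932 to 968 CPM in WT and 32.6 to 39.1 CPM in Abca4KO, which matched every label. All 15 RPE markers were detected, with sums of 36137 to 45003 CPM in WT and 40534 to 43261 in the knockouts. By log2 fold change (Abca4KO over WT), 10 were negative and 5 positive, beside 52.2% negative among all tested genes. Mertk (mean 248 CPM in WT, 201 in Abca4KO) and Lrat (1797 and 1389) were lower in all knockout libraries. Rdh5 (2086 and 2406) was higher in all of them. Interferon response genes set WT 2 apart (2372 CPM over 12 genes, elsewhere 237 to 345), and rod genes set Abca4KO 1 apart (3618 CPM over 14 genes, elsewhere 734 to 1917).

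PPARs with their partners bind paired copies of the hexamer AGGTCA set 1 base apart. RefSeq promoter windows (GRCm38.p6, 300 bases, 250 before the start site and 50 after) matched 6 of the 8 genes with 7 windows. Angptl4 and Acat1 had no window, so their promoters were not read. On both strands, the exact spaced pair occurred in 0 of the 7 windows and in 0.0396% of all 32851 windows. A single exact hexamer occurred in the windows of Cpt1a and Plin2 and in 16.3% of all windows. Those windows are shown because they hold the match, in capitals and on the strand opposite to the gene: Cpt1a at chr19:3323051-3323350 (plus strand) and Plin2 at chr4:86670010-86670309 (minus strand), each 5′ to 3′ along its gene.

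Cpt1a: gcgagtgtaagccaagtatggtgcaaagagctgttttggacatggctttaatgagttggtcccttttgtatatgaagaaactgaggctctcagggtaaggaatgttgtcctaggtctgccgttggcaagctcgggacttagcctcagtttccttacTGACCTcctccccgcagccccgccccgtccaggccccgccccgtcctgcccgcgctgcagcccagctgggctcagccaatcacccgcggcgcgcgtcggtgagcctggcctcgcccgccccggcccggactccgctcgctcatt

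Plin2: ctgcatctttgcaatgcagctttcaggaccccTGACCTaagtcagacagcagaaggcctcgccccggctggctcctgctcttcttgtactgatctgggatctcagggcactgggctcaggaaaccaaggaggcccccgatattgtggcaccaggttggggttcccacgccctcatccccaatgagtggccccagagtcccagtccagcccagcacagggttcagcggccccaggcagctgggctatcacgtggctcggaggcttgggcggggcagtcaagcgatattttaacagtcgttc

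The match lies 94 bases before the start site in Cpt1a and 218 bases before it in Plin2. It describes letters only, since no binding was measured.

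Divided by gene length, the levels of the 8 genes spanned a wide range. Values after ± are SDs over the 3 libraries of a genotype, and in pairs of means WT comes first. Cpt1a, the gate of mitochondrial fatty acid entry, was highest at 59.7 ± 8.93 CPM per kilobase in wild type and 51.6 ± 9.58 in the knockouts. Plin2, a coat protein of lipid droplets, had 41.3 ± 5.72 CPM per kilobase in wild type and 36.1 ± 4.41 in the knockouts. Acat1, the thiolase that forms or splits acetoacetyl-CoA in mitochondria, had 33.1 ± 1.34 CPM per kilobase in wild type and 30.4 ± 2.55 in the knockouts. By level per length these 3 genes lay at percentiles 91.6 to 95.5 of the 17340 tested genes.

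Hadhb, the beta subunit of the mitochondrial trifunctional protein, had 17.5 ± 1.47 CPM per kilobase in wild type and 16.5 ± 1.03 in the knockouts. Angptl4, a secreted inhibitor of lipoprotein lipase, had 15.9 ± 1.16 CPM per kilobase in wild type and 8.61 ± 2.22 in the knockouts. Bdh1, which interconverts acetoacetate and beta-hydroxybutyrate, had 5.46 ± 1.06 CPM per kilobase in wild type and 5.17 ± 1.44 in the knockouts. These middle levels were followed by the regulators. Pdk4, a kinase that shuts off pyruvate dehydrogenase, had 4.55 ± 0.672 CPM per kilobase in wild type and 3.86 ± 0.500 in the knockouts. Ppara, the receptor, was lowest at 1.71 ± 0.240 CPM per kilobase in wild type and 1.58 ± 0.231 in the knockouts. Neighbours in this order overlapped in range over the 6 libraries, except Acat1 above Hadhb (lowest 28.8 against highest 18.8) and Pdk4 above Ppara (3.35 against 1.90).

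**Figure D1:**
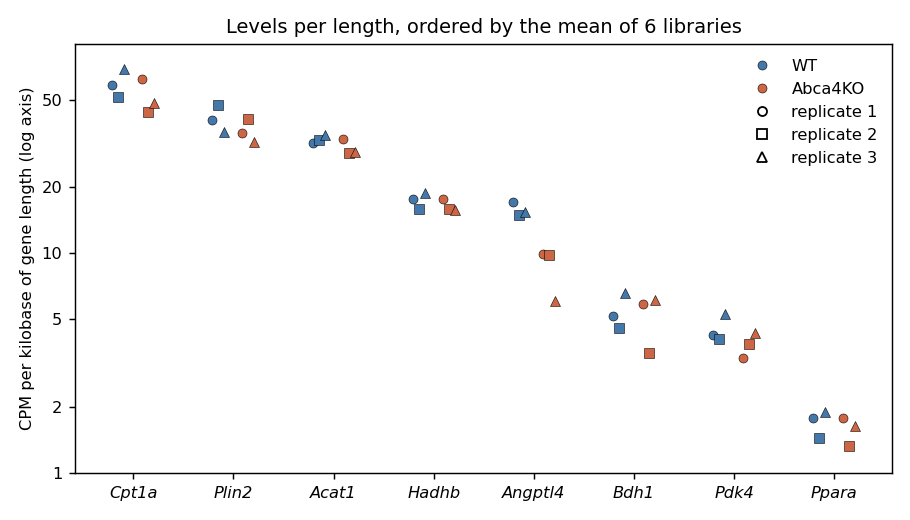
Level of each gene in CPM per kilobase of gene length (log axis) in the 6 RPE libraries, coloured by genotype. Cpt1a, Plin2 and Acat1 sit highest and Ppara lowest, and the genotypes separate for Angptl4.

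The study asked which RPE transcripts differ in Abca4-/- mice. Of the 8 genes, 0 passed an adjusted p of 0.05 in edgeR, where 8 of 17340 genes (0.0461%) did. Angptl4 alone had an unadjusted p under 0.05, 1 of 8 against 7.02% of all tested genes. The 8 log2 fold changes (Abca4KO over WT) were all negative, with a median of -0.16, beside -0.01 over all tested genes. Genotypes failed to overlap in 1 of the 8, Angptl4, which was lower in the knockouts. Among all tested genes 6.85% were lower without overlap and 5.93% higher.

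**Figure D2:**
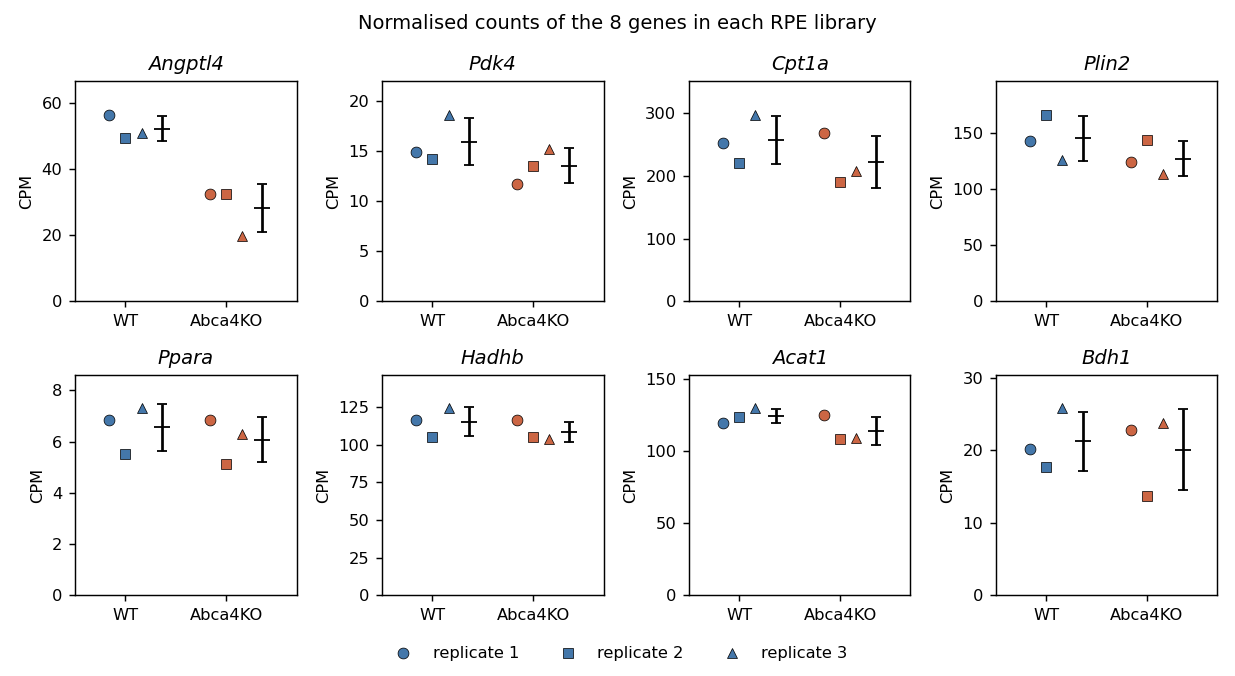
CPM of the 8 genes in each library by genotype, with the mean and SD (n = 3) beside each group. Angptl4 spans 19.9 to 32.6 CPM in Abca4KO and 49.4 to 56.6 CPM in WT, and the other 7 genes overlap.

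The PPAR target Angptl4 (ENSMUSG00000002289, chromosome 17, 33773750 to 33781575, minus strand, mm10) stood at 56.6, 49.4 and 50.9 CPM in WT replicates 1 to 3 and at 32.6, 32.5 and 19.9 CPM in Abca4KO replicates 1 to 3. The WT libraries were close together, and Abca4KO 3 was the lowest of all. Means were 52.3 ± 3.80 against 28.3 ± 7.30 CPM, a 1.85-fold gap. The log2 fold change was -0.88 (SE 0.19, 95% interval -1.33 to -0.44), and edgeR's adjusted p was 0.473 (unadjusted p = 0.00200, rank 73 of 17340). An exact permutation test of 3 against 3 libraries gave p = 0.1, the smallest it allows.

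The call on Angptl4 differed by tool: its adjusted p was 0.00355 in DESeq2 and 0.0488 in limma-voom with sample weights. Its log2 fold change ran from -1.17 to -0.69 over 15 alternative analyses, the latter without Abca4KO 3.

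Summed markers of other cell types were compared in the same libraries. Endothelial markers, 12 of 12 with positive log2 fold changes, summed to 374 to 619 CPM in WT and 613 to 948 in the knockouts, with overlap and with the highest sum in Abca4KO 3, where Angptl4 was lowest. Fibroblast markers, 8 of 8 positive, summed to 1413 to 1716 and 1748 to 2197 CPM without overlap. Adipocyte markers, 4 of 6 positive, summed to 14.6 to 23.8 and 21.9 to 48.1 CPM with overlap, again highest in Abca4KO 3. Within that list Cfd averaged 1.82 ± 0.206 against 5.59 ± 3.91 CPM without overlap, Fabp4 11.99 ± 3.94 against 23.7 ± 6.82 CPM and Adipoq 0.373 ± 0.189 against 1.21 ± 1.07 CPM (log2 fold changes 1.61, 0.98 and 1.66), while Plin1 and Retn were at -0.11 and -0.46. Lep was near 0, with 0 to 3 counts per library. Melanocyte markers, 4 of 7 positive with a median of 0.40, summed to 4315 to 6715 and 6388 to 8213 CPM with overlap. Mlana averaged 192 ± 23.4 against 308 ± 66.9 CPM without overlap. Kit went the other way without overlap, at 66.5 ± 3.04 against 49.1 ± 4.78 CPM (log2 fold change -0.44). Tyr and Sox10 were at -0.05 and -0.03. Several of the melanocyte genes are also expressed by pigmented RPE. Macrophage markers were positive in 8 of 12 (sums 873 to 1656 and 1039.8 to 1488 CPM) and red blood cell markers in 5 of 5 (1118 to 1779.7 and 1091 to 2569 CPM), with overlap. Rod markers were positive in 13 of 14, skeletal muscle markers in 6 of 9 and glial markers in 3 of 8, with overlapping sums. The part of these cells in the Angptl4 difference was not tested.

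Pdk4 (ENSMUSG00000019577, chromosome 6, 5483351 to 5496309, minus strand) stood at 14.97, 14.3 and 18.7 CPM in WT and 11.8, 13.6 and 15.3 CPM in Abca4KO. Abca4KO 3 exceeded WT 1 and WT 2, so the genotypes overlapped. The log2 fold change of Pdk4 was -0.24 (SE 0.17, 95% interval -0.63 to 0.15), and edgeR's adjusted p was 0.818. Pdk4 was at -0.11 without WT 3 and -0.15 without Abca4KO 1.

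Cpt1a (ENSMUSG00000024900, chromosome 19, 3323301 to 3385732, plus strand) stood at 252, 221 and 297 CPM in WT and 268, 189.6 and 208 CPM in Abca4KO. WT 3 was highest and Abca4KO 2 lowest, while Abca4KO 1 exceeded WT 1 and WT 2. For Cpt1a, the log2 fold change was -0.21 (SE 0.16, 95% interval -0.58 to 0.16), and edgeR's adjusted p was 0.841. Cpt1a was at -0.09 without WT 3, -0.37 without Abca4KO 1 and -0.11 without Abca4KO 2.

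Plin2 (ENSMUSG00000028494, chromosome 4, 86648386 to 86670060, minus strand) stood at 142, 166 and 126 CPM in WT and 124, 144 and 113 CPM in Abca4KO. Replicate 2 was highest and replicate 3 lowest in each genotype, and the genotypes overlapped. The log2 fold change of Plin2 was -0.19 (SE 0.13, 95% interval -0.50 to 0.11), and edgeR's adjusted p was 0.811. Plin2 was at -0.08 without WT 2 and -0.11 without Abca4KO 3. Its pseudogene Gm12551, 96.1% identical over 259 bases, had 1 count in all.

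The receptor gene Ppara (ENSMUSG00000022383, chromosome 15, 85734983 to 85802819, plus strand) stood at 6.86, 5.53 and 7.29 CPM in WT and 6.85, 5.11 and 6.28 CPM in Abca4KO. With 99 to 135 counts per library it was the least covered of the 8, and its genotypes overlapped. For Ppara, the log2 fold change was -0.11 (SE 0.22, 95% interval -0.62 to 0.40), and edgeR's adjusted p was 0.947. Without Abca4KO 2 it was 0.00. Ppard, a widely expressed PPAR, averaged 41.1 ± 3.20 against 39.3 ± 4.50 CPM.

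Hadhb (ENSMUSG00000059447, chromosome 5, 30155248 to 30184593, plus strand) stood at 116, 105 and 124 CPM in WT and 117, 106 and 104 CPM in Abca4KO. Its highest library was 1.19 times its lowest, the narrowest range of the 8. The log2 fold change of Hadhb was -0.08 (SE 0.09, 95% interval -0.30 to 0.13), and edgeR's adjusted p was 0.887. Hadhb was at -0.15 without WT 2, -0.02 without WT 3, -0.14 without Abca4KO 1 and -0.05 without Abca4KO 3. Hadha, the alpha subunit of the same enzyme, averaged 176 ± 15.2 against 155 ± 11.8 CPM (log2 fold change -0.19, adjusted p = 0.746 in edgeR).

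Acat1 (ENSMUSG00000032047, chromosome 9, 53580522 to 53610382, minus strand) stood at 119.7, 124 and 129.7 CPM in WT and 125, 108 and 109 CPM in Abca4KO. Of the knockouts, Abca4KO 1 reached into the WT range and the others lay below it. For Acat1, the log2 fold change was -0.13 (SE 0.09, 95% interval -0.33 to 0.07), and edgeR's adjusted p was 0.812. Acat1 was at -0.20 without Abca4KO 1.

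Bdh1 (ENSMUSG00000046598, chromosome 16, 31422280 to 31458901, plus strand) stood at 20.2, 17.8 and 25.8 CPM in WT and 22.8, 13.7 and 23.8 CPM in Abca4KO. Replicate 2 was the lowest in both genotypes, and the spread reached 1.45-fold within WT and 1.74-fold within Abca4KO. The log2 fold change of Bdh1 was -0.08 (SE 0.24, 95% interval -0.64 to 0.48), and edgeR's adjusted p was 0.969; it turned positive without WT 3 (0.09) or Abca4KO 2 (0.14). The antisense gene Gm15743 overlaps it with 28 counts in all, beside 2315 for Bdh1.

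Slc16a1, the ketone body and lactate transporter MCT1, averaged 1359 ± 70.3 against 1414 ± 54.5 CPM. Slc16a1, Hadha and Ppard were picked for their roles after values were seen.

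The 8 genes did not follow 1 shared profile across libraries. Cpt1a, Ppara and Bdh1 were lowest in replicate 2 of each genotype, where Plin2 was highest. Bdh1 in Abca4KO 2 lay below its own 6-library mean on the log2 scale (deviation -0.56), and Plin2 in WT 2 lay above it (deviation 0.30). The RPE marker sum was lowest in these same libraries of each genotype (36137 CPM in WT 2, 40534 in Abca4KO 2), and its part was not tested.

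**Figure D3:**
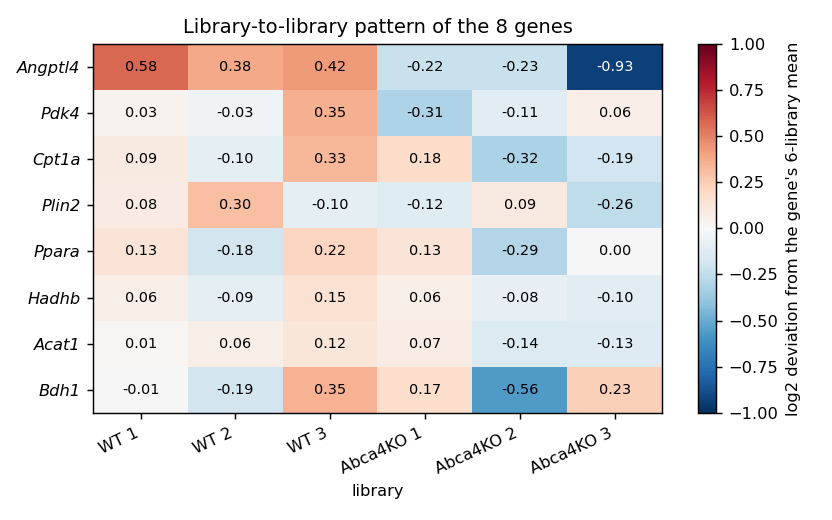
Log2 CPM of each gene in each library minus that gene's mean over the 6 libraries, red above and blue below. Angptl4 is above 0 in all WT and below 0 in all Abca4KO libraries, while Cpt1a, Ppara and Bdh1 are below 0 in WT 2 and Abca4KO 2 and Plin2 is above 0 there.

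Profiles closest to a gene were ranked by the root mean square difference of centred log2 CPM over the 6 libraries, for genes of at least 5 CPM and members varying at least 1.5-fold. Closest to Angptl4, whose own SD was 0.57, were Igsf10 (0.15) and Nfe2l3 (0.21). Gramd1b (0.03) and Phlpp2 (0.03) were closest to Cpt1a. Ddr1 (0.06) and Zfp438 (0.07) were closest to Pdk4, and Cptp (0.07) and Cutal (0.08) to Bdh1.

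The wider pathways were read from 8 overlapping lists that include the 8 genes, with 137 of 151 symbols tested. Of these, 0 passed the adjusted threshold in edgeR and 2 in DESeq2, Angptl4 and Fabp5. An unadjusted p under 0.05 was reached by 15 lower genes (10.9%, against 3.87% of all tested genes) and 6 higher genes (4.38%, against 3.15%). This total of 21 was not stable: it was 9 without WT 1, 23 without WT 2 and 7 without WT 3. It was 22 without Abca4KO 1, 7 without Abca4KO 2 and 9 without Abca4KO 3. Shares follow for pathway genes, then all genes. They were 6.57% and 5.78% without WT 1, 16.8% and 10.7% without WT 2, and 5.11% and 6.59% without WT 3. For the knockouts they were 16.1% and 7.81% without Abca4KO 1, 5.11% and 4.53% without Abca4KO 2, and 6.57% and 4.26% without Abca4KO 3. Without WT 3 the pathway share lay below that of all genes, and without WT 1 or Abca4KO 2 it lay close to it. DESeq2, run without the filter on low counts, gave 12 of 147 pathway genes (8.16%, against 4.10% of 28968 genes). Its background thus holds many weakly covered genes and is not the same as in edgeR. With sample weights, limma-voom gave 39 (28.5% against 16.9%). Leaving out WT 2 and Abca4KO 1 together gave 45 (32.8% against 16.4%). Genotypes did not overlap in 19 lower genes (13.9%, against 6.85% of all tested genes) and 8 higher genes (5.84%, against 5.93%, near the background). For reading each list below, 52.2% of all tested genes had a negative log2 fold change, with a median of -0.01.

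In mitochondrial fatty acid oxidation, 27 of 30 tested genes had a negative log2 fold change (24 to 27 with single libraries left out), and the median was -0.11. In all, 4 lower and 0 higher genes had an unadjusted p under 0.05 (0 to 8 and 0 to 1 with single libraries left out). Acadvl, the very long-chain acyl-CoA dehydrogenase, averaged 56.8 ± 4.99 against 46.1 ± 5.31 CPM. Acadl, the long-chain enzyme, averaged 145 ± 12.1 against 126 ± 4.54 CPM, and Etfb, which takes their electrons, 27.3 ± 3.14 against 21.99 ± 2.14 CPM. Each was lower in all knockout libraries, with adjusted p = 0.691, 0.701 and 0.706 in edgeR. Acadvl is uncertain, since Dvl2 overlaps it on the opposite strand (2647 counts beside 5769). The list's sum overlapped between genotypes (2862 to 3458 and 2803 to 3191 CPM).

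Among PPAR target genes, 24 of 35 tested genes had a negative log2 fold change (21 to 26 with single libraries left out), and the median was -0.09. In all, 6 lower and 1 higher genes had an unadjusted p under 0.05 (2 to 9 and 1 to 2 with single libraries left out). Of the 35 genes, 29 are also in other lists, so this list is no separate evidence. Acadvl and Acadl, for example, are among the lower genes here and in mitochondrial oxidation. Acot1, a cytosolic acyl-CoA thioesterase, averaged 37.6 ± 7.54 against 23.5 ± 4.75 CPM without overlap, and its mitochondrial relative Acot2 25.5 ± 1.86 against 20.3 ± 2.16 CPM. Reads of this pair may be split uncertainly, since they are 95.1% identical over 1274 bases. Fabp4, a fatty acid carrier of fat and vessel cells and 1 of the adipocyte markers, averaged 11.99 ± 3.94 against 23.7 ± 6.82 CPM with overlap. Adjusted p-values in edgeR were 0.616 for Acot1, 0.691 for Acot2 and 0.616 for Fabp4.

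Among receptors and partners, 12 of 16 tested genes had a negative log2 fold change (10 to 14 with single libraries left out), and the median was -0.13. In all, 3 lower and 1 higher genes had an unadjusted p under 0.05 (0 to 4 and 0 to 1 with single libraries left out). Summed over the list, the genotypes lay apart, with 932 to 956 CPM in WT against 815 to 885 CPM in the knockouts. Nrip1, a corepressor, averaged 47.9 ± 5.01 against 37.8 ± 3.85 CPM, and the corepressor Ncor1 153 ± 3.07 against 134 ± 9.43 CPM. Pparg, the PPAR of fat storage, averaged 9.06 ± 0.898 against 12.2 ± 0.207 CPM, higher in all knockout libraries. Adjusted p-values in edgeR were 0.648, 0.706 and 0.679. Ncor1 is uncertain to the extent of Ttc19 on the opposite strand (4654 counts beside 16083).

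In fatty acid uptake and binding, 4 of 16 tested genes had a negative log2 fold change (3 to 4 with single libraries left out), and the median was 0.31. In all, 2 lower and 3 higher genes had an unadjusted p under 0.05 (1 to 2 and 2 to 4 with single libraries left out). Angptl4 is 1 of the negative genes. Fabp5, another fatty acid carrier, averaged 45.8 ± 10.03 against 85.00 ± 20.3 CPM, higher in all knockout libraries, with an adjusted p of 0.546 in edgeR and 0.00426 in DESeq2. Lipa, the lysosomal acid lipase, averaged 164 ± 13.9 against 202 ± 27.5 CPM (adjusted p = 0.701 in edgeR). Fibroblast marker sums, given above, were higher in every Abca4KO library than in any WT library, and endothelial and adipocyte sums reached their highest values there. Their part in this list was not tested.

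In peroxisomal oxidation, 11 of 19 tested genes had a negative log2 fold change (10 to 11 with single libraries left out), and the median was -0.05. In all, 1 lower and 0 higher genes had an unadjusted p under 0.05 (0 to 2 and 0 to 0 with single libraries left out). Crot, the carnitine octanoyltransferase, averaged 67.7 ± 4.08 against 58.6 ± 2.61 CPM, and the bifunctional enzymes Ehhadh 17.4 ± 0.340 against 14.8 ± 1.60 CPM and Hsd17b4 69.04 ± 5.00 against 63.8 ± 2.68 CPM. Adjusted p-values in edgeR were 0.701, 0.771 and 0.842. Pseudogenes overlap Crot (Gm15610, 425 counts) and Hsd17b4 (Cd63-ps, 4987 counts), which makes both uncertain.

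In ketone body synthesis and use, 8 of 14 tested genes had a negative log2 fold change (5 to 10 with single libraries left out), and the median was -0.03. In all, 1 lower and 1 higher genes had an unadjusted p under 0.05 (0 to 1 and 0 to 1 with single libraries left out). Oxct1, which starts ketone body use, averaged 126 ± 11.6 against 149 ± 11.9 CPM with overlap. The transporter gene Slc16a6 averaged 81.8 ± 1.46 against 68.3 ± 8.13 CPM. Adjusted p-values in edgeR were 0.701 for Oxct1 and 0.691 for Slc16a6. Slc16a6 is uncertain, since Arsg overlaps it on the opposite strand (16983 counts beside 8444).

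For lipid droplets, 13 of 22 tested genes had a negative log2 fold change (8 to 14 with single libraries left out), and the median was -0.02. In all, 0 lower and 1 higher genes had an unadjusted p under 0.05 (0 to 1 and 0 to 3 with single libraries left out). Dgat1, which makes triglyceride, averaged 28.99 ± 1.26 against 35.7 ± 3.91 CPM. The droplet proteins Hsd17b11 and Hsd17b13 averaged 209.7 ± 3.37 against 239 ± 20.2 CPM and 2.12 ± 0.239 against 1.06 ± 0.441 CPM. Adjusted p-values in edgeR were 0.679, 0.712 and 0.706.

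For pyruvate dehydrogenase and its kinases, 7 of 14 tested genes had a negative log2 fold change (7 to 9 with single libraries left out), and the median was -0.00. In all, 2 lower and 0 higher genes had an unadjusted p under 0.05 (0 to 3 and 0 to 0 with single libraries left out). Pdk1 and Pdk3, relatives of Pdk4, averaged 67.6 ± 5.73 against 57.9 ± 9.19 CPM and 31.7 ± 1.44 against 26.4 ± 2.49 CPM. Pdpr, the regulatory subunit of the opposing phosphatase, averaged 32.2 ± 1.37 against 25.1 ± 3.29 CPM. Adjusted p-values in edgeR were 0.774, 0.706 and 0.639. Pdpr is uncertain, since 9430091E24Rik overlaps it on the opposite strand (645 counts beside 3219).

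**Figure D4:**
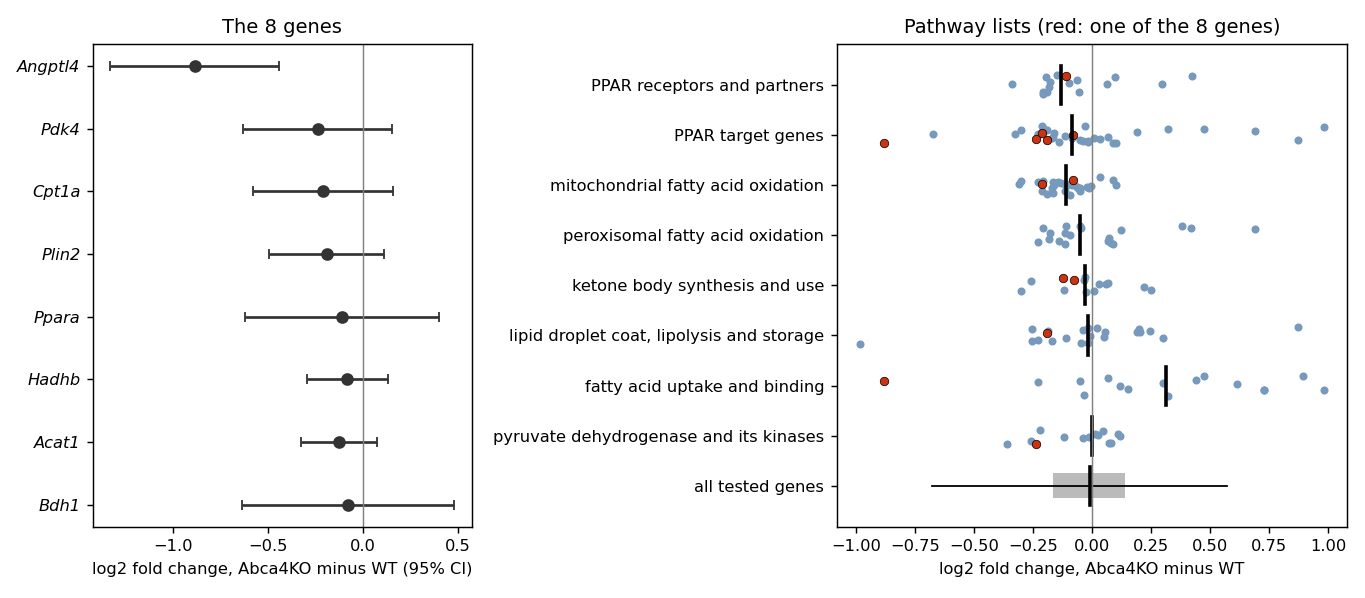
Left, log2 fold change (Abca4KO over WT) of the 8 genes with 95% confidence intervals; right, the same values for each tested gene of the 8 lists, with black lines for medians and, for all tested genes, a bar from the 25th to the 75th percentile and a whisker from the 5th to the 95th. The interval of Angptl4 lies below 0 and the others cross it, and list medians run from -0.13 to 0.31.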

How the data were processed

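Whole-number read counts per gene were deposited by the authors for 54532 genes in 6 RPE libraries, 3 per genotype, without normalization. Per the submitters' processing notes, STAR, HTSeq and mm10 were used; versions, annotation release and strand setting are not given in the sources used here. No 2 libraries agreed within sampling noise (lowest chi-square per degree of freedom 12.6).

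In edgeR 4.0.16 (R 4.3.3), filterByExpr (minimum count 10) kept 17340 genes. The 2-sided quasi-likelihood test with TMM factors compared genotypes, with Benjamini-Hochberg adjustment over all tested genes and a threshold of 0.05. SEs are the log2 fold change over the root of F. CPM per kilobase used the deposited gene length. Similar transcripts were sought with BLAST, keeping alignments of at least 250 bases.

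The 8 genes, lists and markers were chosen with earlier results of these data known. Named genes were the 8, Abca4, up to 3 others per list by smallest p, and the closest profiles; a gene that the rule also names is not reported here. Alternatives were other size factors and filters, DESeq2 1.42.0, limma 3.58.1 (voom with sample weights), a replicate block and each library left out; leaving out WT 2 and Abca4KO 1 together was added after seeing the data.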

Additional observations from a re-analysis of the deposited data

How the results depend on the processing

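Genes past the adjusted threshold numbered 8 in edgeR, 19 with no filter on low counts, 106 in DESeq2, 31 in limma-voom with sample weights, 190 without WT 2 and Abca4KO 1, and 3 to 11 with single libraries left out (4 without WT 1, 3 without Abca4KO 2, 3 without Abca4KO 3). Of the 8 genes, 1 passed in DESeq2 and 1 in limma-voom, Angptl4 both times. Of the pathway genes, 2 passed in DESeq2, 1 in limma-voom and 2 (Acot1 and Fabp5) without WT 2 and Abca4KO 1. Genotypes failed to overlap in 1 to 3 of the 8 with single libraries left out (3 without WT 2, 3 without Abca4KO 1, 2 without Abca4KO 2, 2 without Abca4KO 3). Without WT 2 and Abca4KO 1 together it was 5. Fewer libraries have to separate in these settings. The share of all tested genes without overlap was not counted there, so these counts cannot be read as an excess. Angptl4, Pdk4, Cpt1a, Plin2, Hadhb and Acat1 kept negative values in all 15 alternatives, but their sizes moved. With single libraries left out, the last 5 of these ran from -0.33 to -0.11, -0.37 to -0.088, -0.29 to -0.082, -0.15 to -0.022 and -0.20 to -0.086, in that order. The same range was -0.22 to 0.0018 for Ppara (positive without Abca4KO 2) and -0.22 to 0.14 for Bdh1 (positive without WT 3, 0.09, and Abca4KO 2). Bdh1 was also positive with sample weights (0.0060), and Slc16a1 turned to -0.025 without WT 2 and Abca4KO 1. Over the alternatives the list medians crossed 0 for peroxisomal oxidation (-0.09 to 0.02), ketone bodies (-0.06 to 0.04), lipid droplets (-0.07 to 0.05) and pyruvate dehydrogenase (-0.13 to 0.01), and kept their sign for the other 4 lists. The cause was not tested. With the replicate block, 9 genes and 0 of the 8 passed, and Angptl4 was at -0.91 (adjusted p = 0.403 in edgeR). Deviations of same-numbered libraries correlated at 0.17, 0.34 and -0.08, so the numbers were not taken as pairs.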
